A study of Danio rerio with 24 samples.

Results

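Haem is the iron-holding pigment of haemoglobin and of many enzymes, and all 10 of the haem synthesis genes examined here were found by symbol among the 14781 gene symbols of the deposited read counts. They are alas1, alas2, alad, hmbsa, hmbsb, uros, urod, cpox, ppox and fech, which together cover the 8 enzymatic steps from glycine and succinyl-CoA to haem. Every one was read in every RNA library, with at least 15 reads, and every one passed the filter on low counts in each comparison.

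The pathway starts in the mitochondrion, moves to the cytosol and ends in the mitochondrion again. The first step, ALA synthase, sets the rate, and vertebrates have a housekeeping form of it (alas1), which haem represses in most tissues, and an erythroid form (alas2), which developing red cells use to supply haemoglobin. The adult zebrafish makes its red cells in the kidney marrow, and several of its inherited anaemias lie in this pathway: sauternes (alas2), yquem (urod), montalcino (ppox) and dracula (fech).

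The series holds RNA from adult male fish of the EK strain, 4 to 12 months old, and ATAC-seq libraries that were not analysed here. The labels describe 17 h in tamoxifen (0.5 to 0.7 µM) and tissue collection on day 7, and do not say whether uninjured fish were bathed. An ablation experiment compares wild type fish after cardiomyocyte ablation with uninjured wild type fish, in brain and in whole kidney marrow, with 2 libraries in each of the 4 groups. A cebpd experiment compares ablated brain of wild type fish with ablated brain of cebpd homozygous knockout fish, with 3 libraries each and no uninjured group. The transgene that ablates the cardiomyocytes, the cebpd allele and the number of fish per library were not given in the sources used here. p-values therefore cover the spread between these samples alone, which may be technical.

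Libraries of the ablation experiment held 14364306 to 20469655 reads in genes, and those of the cebpd experiment held 4377028 to 6280007. Levels are given in CPM, the reads of a gene scaled to library size, with TMM factors over the 14 RNA libraries. The tissue labels matched their markers: 9 neuron genes summed to 10582 to 12284 CPM in the brain libraries and to 83.5 to 116 CPM in the marrow libraries, while 9 nephron genes summed to 7809 to 11209 CPM in marrow, which therefore holds kidney tubule RNA beside blood cells. In the knockout libraries cebpd stood at 1.17, 2.78 and 0.827 CPM, against 45.1, 71.3 and 38.2 CPM in their wild type (log2 fold change -4.96, edgeR adjusted p = 1.32e-05).

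Kidney marrow against brain asks where the pathway is expressed. All 10 genes were higher in uninjured kidney marrow than in uninjured brain, by log2 fold changes of 1.43 to 4.22 (n = 2 per group, edgeR adjusted p from 1.52e-05 to 0.000438). The tissues differ widely: 78.1% of the 12936 genes tested passed in either direction and 39.2% passed as higher in marrow. The libraries of the tissues did not overlap for any of the 10 genes, as for 45.0% of all genes in that direction. The median member stood 2.51 higher on the log2 scale, where the median of all genes was 0.00. In bulk tissue, fewer cells of a type and less RNA per cell cannot be told apart, here or in the comparisons that follow.

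The erythroid gene alas2 stood at 1089 and 737 CPM in the uninjured marrow and at 1052 and 760.5 CPM in the ablated marrow. Across the 10 brain libraries it ranged from 44.1 to 76.4 CPM, with a median of 53.0. The lowest marrow library was thus 9.65 times the highest brain library, and the log2 fold change between uninjured tissues was 4.02 (SE 0.21, edgeR adjusted p = 1.52e-05). alas1 was the more even of the pair, at 276 and 382 CPM in uninjured marrow, 219 and 248 CPM in ablated marrow, and 108 to 137 CPM in brain. Its log2 fold change between uninjured tissues was 1.43 (SE 0.16, adjusted p = 0.000417), and the lowest marrow library was 1.6 times the highest brain library.

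**Figure D1:**
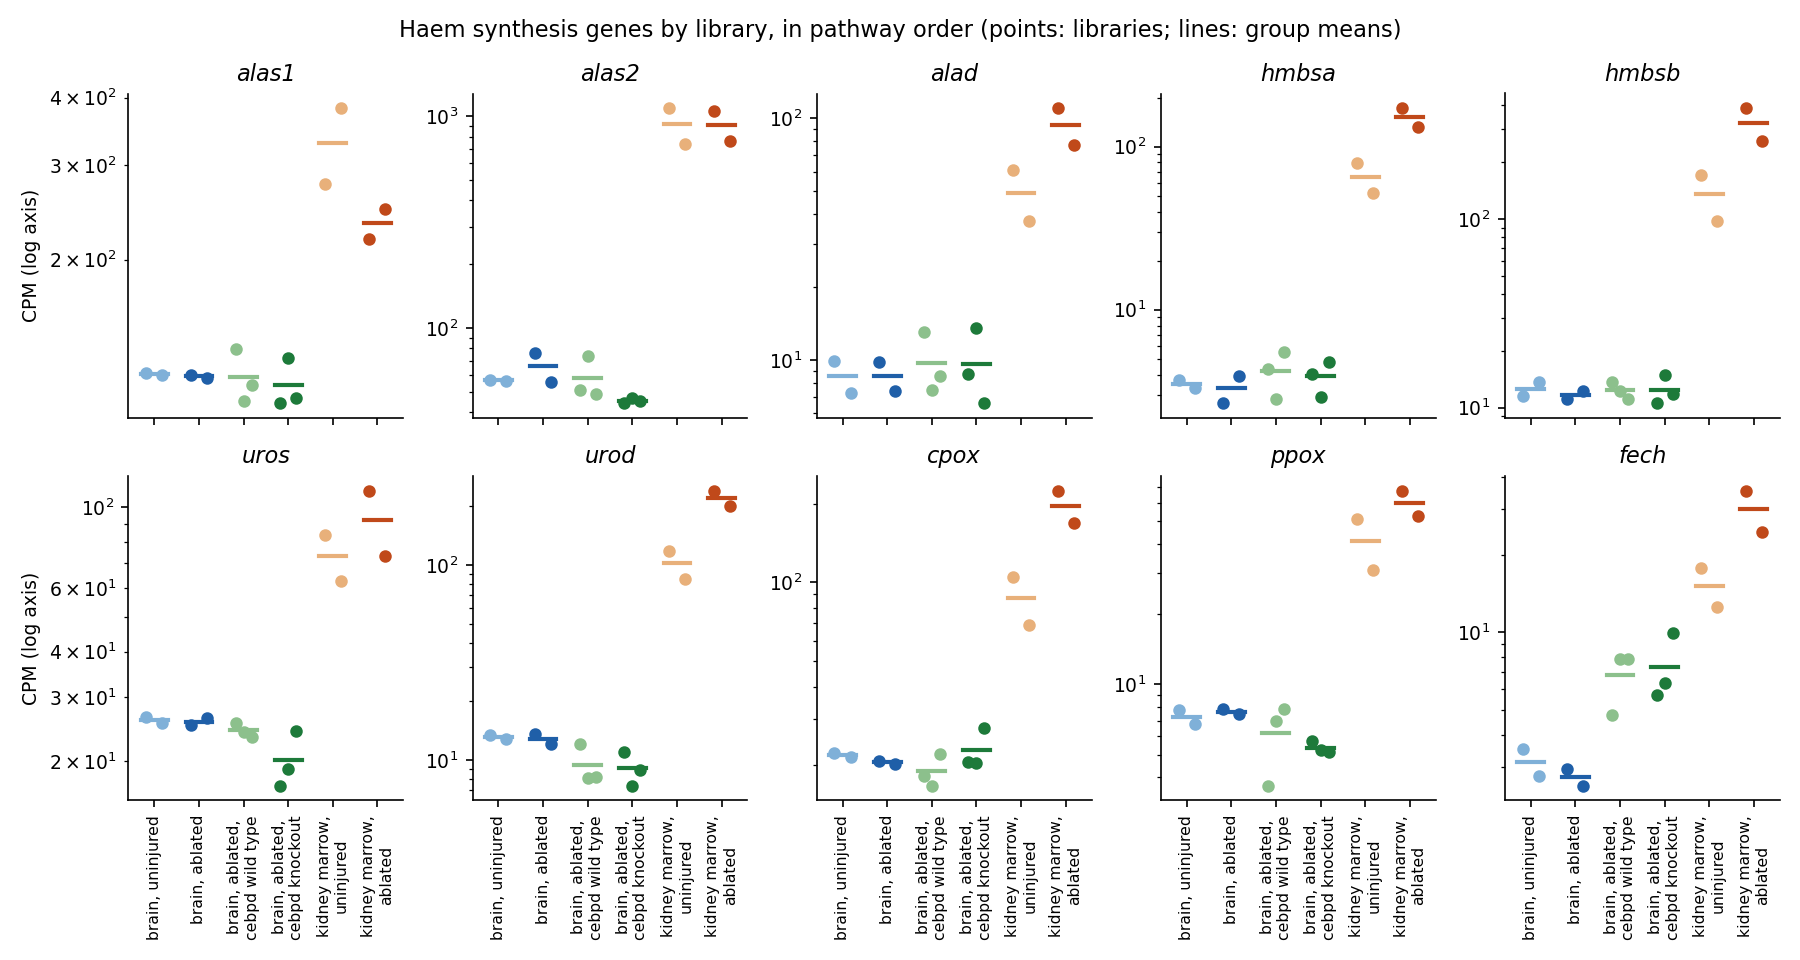
Level of each haem synthesis gene in the 14 RNA libraries, in library-scaled reads (CPM) on a log axis that differs between panels. Points are libraries, coloured by group, and lines are group means. All 4 kidney marrow libraries lie above all 10 brain libraries in each panel, and the gap is widest for alas2 and hmbsa.

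The other enzymes lay between or beside these values. hmbsa and hmbsb encode hydroxymethylbilane synthase, which joins porphobilinogen units into a chain. hmbsa stood at 79.1 and 51.6 CPM in uninjured marrow against 3.71 and 3.31 CPM in uninjured brain, and hmbsb at 172 and 98.0 CPM against 11.5 and 13.7 CPM. Their log2 fold changes were 4.22 (SE 0.27) and 3.43 (SE 0.30). urod, the decarboxylase that makes coproporphyrinogen, followed at 2.96 (SE 0.19), then alad, which forms porphobilinogen, at 2.52 (SE 0.29), and ppox, the oxidase of the penultimate step, at 2.50 (SE 0.28).

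fech, the ferrochelatase that inserts iron into protoporphyrin, was 2.26 higher (SE 0.26). cpox, the oxidase upstream of ppox, was 1.99 higher (SE 0.22). uros, which closes the ring to uroporphyrinogen III, was 1.5 higher (SE 0.16), close to alas1. Several neighbours in this order lay within a standard error of each other, such as alad with ppox and uros with alas1, so their order is not resolved.

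The hmbs paralogues were read in different proportions in the tissues. There were 1.9 to 2.24 reads of hmbsb per read of hmbsa in the 4 marrow libraries and 2.0 to 5.05 in the 10 brain libraries, with a brain median of 3.13. The ranges overlap at the brain library with the lowest ratio, wild type replicate 3 of the cebpd experiment. How reads that map to both copies were counted was not given in the sources used here, so the split between the copies is uncertain. Their sum was 150 to 558 CPM in marrow and 13.7 to 18 CPM in brain. A misassignment between the copies does not touch that sum, but discarding reads that map to both would lower it.

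The ratio of alas2 to alas1 reads within a library needs no scaling between libraries. It was 4.81 and 3.06 in ablated marrow and 3.94 and 1.93 in uninjured marrow. In the brain of the ablation experiment it was 0.625 and 0.457 after ablation, and 0.462 and 0.460 without injury. In the cebpd experiment it was 0.371, 0.674 and 0.418 in wild type and 0.407, 0.356 and 0.406 in knockout brain. All 4 marrow libraries had more alas2 than alas1 reads and all 10 brain libraries had fewer.

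The mean log2 ratio was 1.70 ± 0.57 (SD, n = 4) in marrow and -1.14 ± 0.30 (SD, n = 10) in brain, a difference of 2.84, or 7.15-fold (two-sided exact permutation test, p = 0.000999, the smallest that 1001 assignments allow). Within the ablation experiment alone the difference was 2.71 (4 against 4 libraries, exact permutation p = 0.0286, the smallest that 70 assignments allow). Both tests pool ablated with uninjured libraries, and the first adds wild type and knockout brain of an experiment without marrow. Their libraries are thus not plain replicates of a tissue. Separation of these tissues is common, as for 45.0% of all genes on the higher side in uninjured marrow, and no share over gene pairs was computed. The ratio speaks of read numbers within a gene pair, and since transcript lengths were not used it does not say which transcript was the more abundant.

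**Figure D2:**
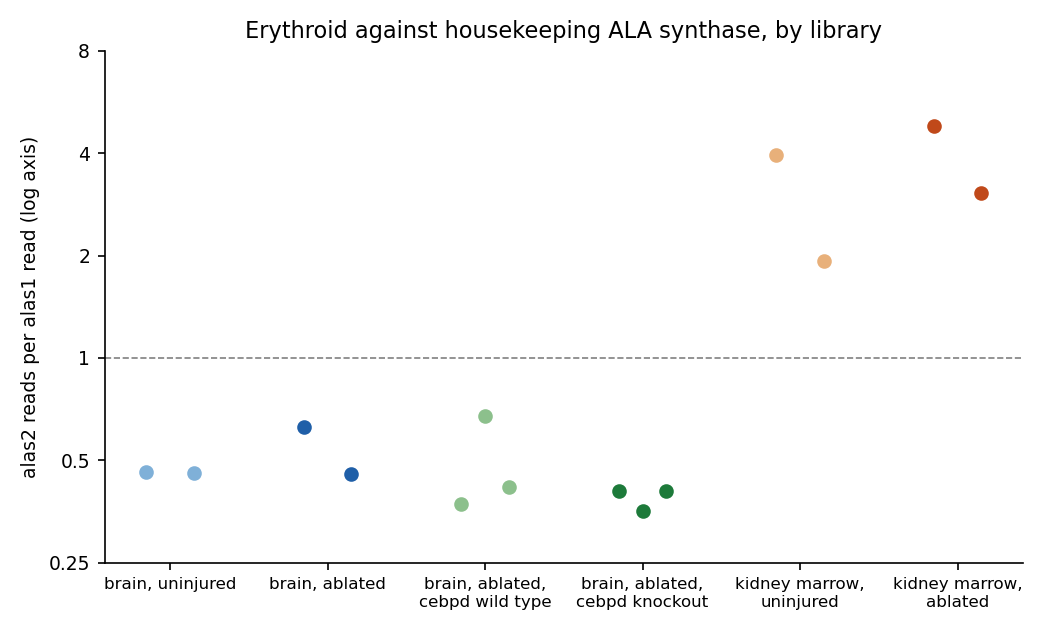
Reads of the erythroid ALA synthase gene alas2 per read of the housekeeping gene alas1 in each RNA library, on a log axis. Points are libraries and the dashed line marks equal read numbers. The marrow libraries lie between 1.93 and 4.81 and the brain libraries between 0.356 and 0.674.

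Taken as a sum, the 10 genes made up 0.133% to 0.238% of the gene reads in marrow and 0.0260% to 0.0298% in brain. alas2 supplied 38.1% to 53.0% of those reads in marrow and 17.5% to 27.3% in brain. Its share was highest in the uninjured marrow libraries, at 53.0% and 47.0%, against 40.2% and 38.1% in the ablated ones.

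Other genes of haem traffic differed between the tissues in both directions, as genes at large did. Among all genes tested 39.2% passed as higher in uninjured marrow and 38.9% as lower. Of 14 tested genes for pathway transport and iron-sulphur supply, 8 were higher and 2 lower in uninjured marrow, with a median of 0.71. tspo, a mitochondrial outer membrane protein that binds porphyrins, was higher by 3.82. The 2 copies of the mitochondrial glycine carrier slc25a38, whose human counterpart is mutated in a sideroblastic anaemia, went opposite ways, with slc25a38a higher by 1.88 (adjusted p = 0.000395) and slc25a38b lower, at -1.09 (adjusted p = 0.00702). Of 9 genes for haem breakdown and export, 5 were higher and 3 lower, among them the haem oxygenase gene hmox1a at 4.41 and the biliverdin reductase gene blvrb at 3.48 on the higher side, and the haem transporter gene slc48a1a at -1.14.

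On the supply side, 6 of 9 genes for glycine and succinyl-CoA were higher and 2 lower, where 39.2% and 38.9% of all genes were. shmt1 and gldc, which make and cleave glycine, were higher in marrow by 5.07 and 4.49, and the glycine transporter gene slc6a9, which is active at brain synapses, was lower, at -2.45. All 11 tested globin and red cell membrane genes were higher, with a median of 3.49, as with the anion exchanger gene slc4a1a at 5.95 and the globin gene ba1l at 4.76. Of 7 erythroid regulators 6 were higher, with klf1 at 4.11 and gata1a at 4.06. The share of all genes on that side is again 39.2%. The summed globin and membrane genes ran from 10596 to 19006 CPM in marrow and from 577 to 966 CPM in brain. The part of red cell RNA in the brain level of alas2 was not tested.

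Ablation in the kidney marrow asks whether the pathway in the blood-forming organ differs 7 days after the heart injury. By the edgeR test 0 of the 10 genes passed, as did 0% of the 12160 genes tested, among which the smallest adjusted p was 0.074. Of the 10 log2 fold changes 9 were above 0, against 49.0% of all genes, and the median was 1.0, against -0.01 for all genes. For 6 members the unadjusted p was under 0.05 on the higher side, a result that 12.3% of all genes had.

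The largest values were those of hmbsb, hmbsa, cpox and urod, which lay within a standard error of one another. hmbsa was read at 172 and 132 CPM after ablation, against 79.1 and 51.6 CPM without injury (log2 fold change 1.26, SE 0.25, adjusted p = 0.102). hmbsb stood at 386 and 259 CPM against 172 and 98.0 CPM (1.31, SE 0.33, adjusted p = 0.135). urod stood at 240.5 and 202 CPM against 119 and 85.0 CPM (1.17, SE 0.19, adjusted p = 0.0949). In each of these genes both ablated libraries lay above both uninjured libraries.

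cpox had 224 and 168 CPM after ablation against 105 and 68.9 CPM without injury (1.22, SE 0.25, adjusted p = 0.109). fech had 35.4 and 24.5 CPM against 17.8 and 12.5 CPM (1.03, SE 0.26, adjusted p = 0.135). alad, the second enzyme, had 109.6 and 77.2 CPM against 60.8 and 37.4 CPM (0.98, SE 0.29, adjusted p = 0.167). The groups did not overlap for cpox, fech or alad, but for alad the lower ablated library was only 1.27 times the higher uninjured one.

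ppox reached 67.7 and 52.7 CPM against 51.1 and 30.9 CPM, so that the nearest libraries of the groups were 1.03-fold apart (0.60, SE 0.27, adjusted p = 0.297). uros reached 111 and 73.6 CPM against 83.8 and 62.7 CPM, with overlapping groups (0.38, SE 0.24, adjusted p = 0.447). The ALA synthase genes had the lowest values of all members. The gap between alas2 and uros was not tested, and the groups overlapped for each of them. alas2, at the levels given above, had a log2 fold change of 0.04 (SE 0.25, adjusted p = 0.944). For alas1 both ablated libraries lay below both uninjured ones (-0.45, SE 0.18, adjusted p = 0.264).

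In all, 7 members had ablated libraries wholly above the uninjured ones, against 23.6% of all genes, and 1, alas1, had them wholly below, against 29.6% of all genes. In both groups replicate 1 stood above replicate 2 for 9 of the genes and below it for alas1. The summed globin and membrane genes kept the same order, at 19006 and 12502 CPM in ablated replicates 1 and 2, and without injury at 14382 and 10596 CPM.

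**Figure D3:**
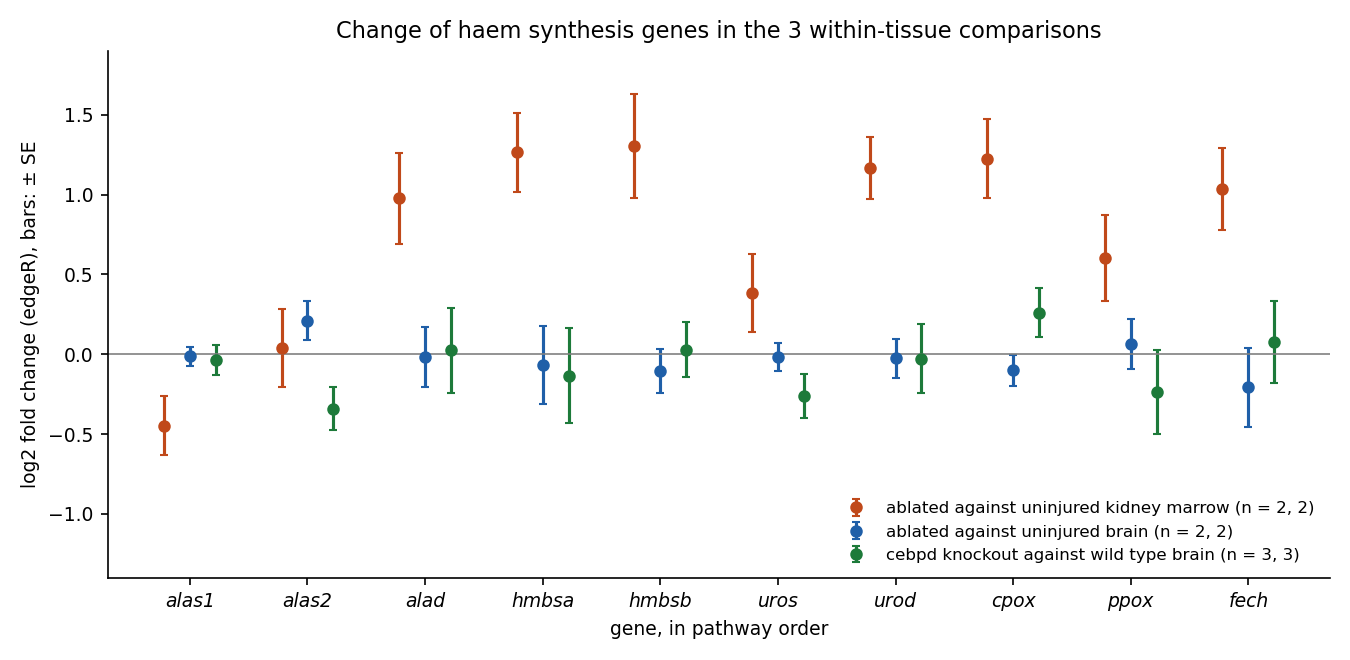
Log2 fold change of each haem synthesis gene in pathway order, from edgeR fits of ablated against uninjured kidney marrow, ablated against uninjured brain, and cebpd knockout against wild type ablated brain. Points are estimates and bars are ± SE. In marrow the 8 genes after ALA synthase lie between 0.38 and 1.31, while none of the values in brain exceeds 0.34 in size.

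The call depended on the test. DESeq2 called 6 members higher in the ablated marrow, against 4.16% of the genes to which it gave an adjusted p: urod (adjusted p = 3.71e-05), hmbsa (0.000186), cpox (0.000316), hmbsb (0.00157), fech (0.0188) and alad (0.0243). An edgeR fit over the 8 libraries of the ablation experiment, in which the brain libraries share in the estimate of the spread, called 5 higher, against 6.97% of all genes: urod (adjusted p = 0.00809), cpox (0.0126), hmbsa (0.0149), hmbsb (0.0252) and fech (0.0313). A fit with the replicate number as a block, which no label says pairs the libraries, called the same 6 genes as DESeq2 (edgeR adjusted p = 0.042 for each), against 3.56% of all genes as higher. The common biological coefficient of variation was 16.5% in the marrow fit, 5.56% in the brain fit and 12.1% in the fit over the 8 libraries.

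Levels relative to alas2 were looked at after the values were known. In the uninjured marrow libraries there were 0.0964 and 0.0936 reads of cpox per read of alas2, and in the ablated ones 0.213 and 0.222, a 2.29-fold difference. hmbsa had 0.0727 and 0.0701 reads per alas2 read without injury and 0.163 and 0.173 after ablation (2.36-fold). fech had 0.0163 and 0.0169 against 0.0336 and 0.0323 (1.98-fold). Replicates within a group, which differed by up to 1.53-fold in CPM for these 3 genes, agreed to within 1.06-fold on this scale, the closest among the enzymes after ALA synthase.

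Of the other genes, hmbsb was 2.44-fold higher per alas2 read after ablation, urod 2.2-fold, alad 1.93-fold, ppox 1.5-fold and uros 1.25-fold. For all 8 genes after ALA synthase the ablated libraries lay above the uninjured ones on this scale, where no share over all genes was computed. In CPM 7 of them did so, against 23.6% of all genes. alas2 itself differed little between the groups (log2 fold change 0.04), so these ratios largely repeat the CPM differences. alas1 had 0.208 and 0.327 reads per alas2 read after ablation and 0.254 and 0.519 without injury, and its groups overlapped. The 8 ratios share their denominator, so they are not independent of one another, and 2 against 2 libraries allow no exact permutation p below 0.333. The ratio of alas2 to alas1 itself differed by 0.48 on the log2 scale between the groups (exact permutation p = 0.667).

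**Figure D4:**
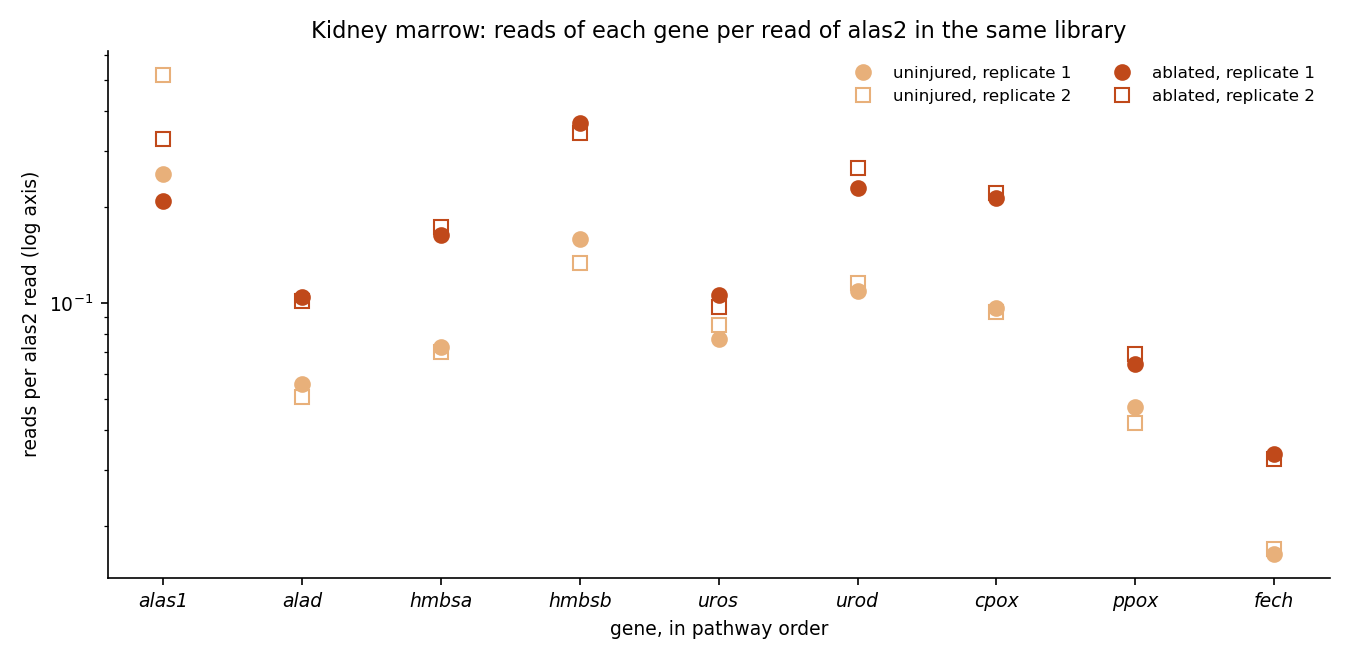
Reads of each haem synthesis gene per read of alas2 in the 4 kidney marrow libraries, on a log axis. Filled circles are replicate 1 and open squares replicate 2, in light colour for uninjured and dark colour for ablated fish. For the 8 genes from alad to fech both ablated libraries lie above both uninjured ones, and for alas1 the groups overlap. No share over all genes was computed on this scale.

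Other red cell genes had lower medians in the same libraries. All 13 tested globin and membrane genes had log2 fold changes above 0 after ablation, with a median of 0.42 and 0 past the test. The embryonic globin gene hbbe1.1 had the largest value, 3.47 (adjusted p = 0.0859), but at levels near the floor. It had 1.27 to 1.57 CPM after ablation and 0.125 CPM in each uninjured library, so only its ablated libraries carried it past the filter on low counts. The transferrin receptor gene tfr1a, which brings iron into red cell precursors, stood at 0.85 (adjusted p = 0.118). All 7 erythroid regulators were above 0 with a median of 0.43, as with gata1a, the master regulator of the lineage, at 1.0 (adjusted p = 0.139), and tal1, its partner, at 0.43 (adjusted p = 0.218).

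Set against the mean log2 level of the globin and membrane list in the same library, the 4 marrow libraries gave differences between ablated and uninjured of 0.87 for hmbsb, 0.82 for hmbsa, 0.77 for cpox, 0.71 for urod, 0.56 for fech and 0.53 for alad. Those 6 were higher without overlap. On the same relative scale uros (-0.10) and ppox (0.17) overlapped, and alas2 (-0.42) and alas1 (-0.90) were lower without overlap. No share over all genes was computed on this scale. In CPM 23.6% of all genes lay wholly above after ablation and 29.6% wholly below. The reference mean takes in all 15 listed genes in the files, hbbe1.1 and others near 0 CPM among them. hbbe1.1, at 1.27 to 1.57 CPM after ablation and 0.125 CPM without injury, raises that mean in ablated marrow and so lowers every relative value. The values without it were not computed. Against the mean of the 7 erythroid regulators, the differences ran from -0.88 for alas1 to 0.88 for hmbsb, with alas2 at -0.40.

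Cell cycle genes stood higher beside them. All 16 had log2 fold changes above 0 in ablated marrow, with a median of 1.0 and 0 past the edgeR test, such as rrm2, a subunit of ribonucleotide reductase, at 1.17 (adjusted p = 0.0793) and mcm7, a subunit of the replicative helicase, at 0.69 (adjusted p = 0.082). Of the 16, 14 had an unadjusted edgeR p under 0.05 on the higher side, as 12.3% of all genes did. The sum of the list ran from 2018 to 2375 CPM after ablation and from 934 to 1384 CPM without injury. Relative to the mean of this list, the genes after ALA synthase differed between the groups by -0.65 for uros to 0.31 for hmbsb, while alas2 stood at -0.98 and alas1 at -1.45.

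Among other cell types, all 5 thrombocyte genes were above 0 (median 0.93), such as itgb3b at 1.33 (adjusted p = 0.074). Each of the 5 had an unadjusted edgeR p under 0.05, as 12.3% of all genes did on the higher side. Their sum ran from 372 to 391 CPM after ablation against 226 to 247 CPM without injury. Lymphocyte genes (6 of 7 below 0, median -0.52, sum 79.3 to 85.8 against 88.3 to 101 CPM) and nephron genes (7 of 9 below 0, median -0.26, sum 7809 to 8580 against 10228 to 11209 CPM) stood lower. Neutrophil genes were nearer to 0, with 5 of 8 below it, a median of -0.03 and a sum of 4519 to 5054 against 5255 to 5518 CPM. The listed globin gene ba1 was at 0 reads in every marrow library. A further listed neuron gene, gap43, was at 0 reads in all 14 RNA libraries, brain included, and is left out of the 9 neuron genes above. The part of the cell makeup in the values of the haem genes was not tested.

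Genes that feed the pathway or carry its products had medians nearer to 0. Of the 9 genes for glycine and succinyl-CoA supply 2 were above 0 in ablated marrow, with a median of -0.13, and the lowest p was that of shmt1, at -0.26 (adjusted p = 0.455). Of the 14 transport and iron-sulphur genes 8 were above 0, with a median of 0.17. At an unadjusted edgeR p under 0.05, 4 of the 14 were higher and 0 lower, where 12.3% of all genes were higher. tmem14ca, whose product carries protoporphyrinogen across the inner mitochondrial membrane, had 82.0 and 68.8 CPM against 46.8 and 37.3 CPM (0.89, adjusted p = 0.0999), and the frataxin gene fxn stood at 0.56 (adjusted p = 0.149).

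The glycine carrier gene slc25a38a had 1.09 and 5.25 CPM after ablation, against 9.66 and 9.97 CPM without injury (-1.54, SE 0.63, adjusted p = 0.263), with ablated libraries that differed widely. Of 9 breakdown and export genes 2 were above 0, with a median of -0.10. The lysosomal haem transporter gene slc48a1b stood lower (-0.44, adjusted p = 0.152) and blvrb higher (0.54, adjusted p = 0.202).

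For the haem proteins outside red cells 6 of 15 were above 0, with a median of -0.15. The myoglobin gene mb stood at -1.20 (adjusted p = 0.0982), and cygb2, a cytoglobin gene, stood at -1.26 (adjusted p = 0.192). Of 8 genes that regulate ALAS1 in mammals 3 were above 0, with a median of -0.29, and hnf4a and nr1i2 were at -0.68 (adjusted p = 0.0859) and -0.65 (adjusted p = 0.246), beside alas1 itself at -0.45. hnf4a is also a gene of kidney tubules, and the nephron list had a negative median in the same libraries, as given above.

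Ablation in the brain asks for the same response away from the blood-forming organ. None of the 10 genes passed the edgeR test, against 0.453% of the 12371 genes tested, DESeq2 also called 0, and 0 had an unadjusted p under 0.05, against 6.85%. Log2 fold changes ran from -0.21 for fech to 0.21 for alas2, with a median of -0.02 and standard errors of 0.06 to 0.25. alas1 showed how narrow the spread could be, at 122 and 121 CPM in the ablated and 123 and 122 CPM in the uninjured libraries (-0.01, SE 0.06).

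In cpox alone the groups did not overlap, at 20.8 and 20.3 CPM against 22.4 and 21.5 CPM (-0.10, SE 0.10, adjusted p = 0.912), and 17.5% of all genes were lower in that way. alas2 had 76.4 and 55.2 CPM in the ablated against 56.8 and 56.2 CPM in the uninjured libraries (0.21, SE 0.12, adjusted p = 0.821). Its value rested on ablated replicate 1. Without ablated replicate 2 the log2 fold change was 0.44 and without ablated replicate 1 it was -0.04. The first of these passed the edgeR test (adjusted p = 0.000758), as 0.790% of all genes did on the higher side, but that fit holds 1 ablated library, which is assumed to vary as little as the uninjured pair, so it is no replicated call. The second had an adjusted p of 0.997.

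The part of red cell RNA in the alas2 level of ablated replicate 1 was not tested. The summed list of globin and membrane genes stood at 656 CPM in ablated replicate 1 and 577 in ablated replicate 2. In the uninjured libraries the sum was 705 and 673 CPM. Of 11 tested genes on that list 8 were below 0 after ablation (median -0.09), and 1, hbaa1, passed as lower. Its levels were 87.0 and 77.2 CPM against 138 and 109 CPM (-0.59, edgeR adjusted p = 0.0321). None of the 14 transport, 9 breakdown and 9 supply genes passed in brain, with medians of 0.02, 0.09 and -0.06.

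The tissue difference of the ablation response, marrow minus brain, was tested as an interaction term in a fit of 8 libraries. By edgeR 0 members passed, against 0.260% of the 13077 genes tested, and 6 had an unadjusted p under 0.05 on the higher side, against 9.69% of all genes. The smallest p values were those of urod (1.19, SE 0.25, adjusted p = 0.0889) and cpox (1.32, SE 0.30, adjusted p = 0.102), and the largest difference that of hmbsb (1.40, SE 0.42, adjusted p = 0.168). DESeq2 called 4 as higher, hmbsa, hmbsb, urod and cpox, against 1.96% of the genes to which it gave an adjusted p. The fit with the replicate block called 3 as higher, alad, urod and cpox, against 0.673% of all genes.

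Single libraries decided further calls. A fit without uninjured marrow replicate 1 leaves 1 library in that group, which is assumed to vary like the other groups, so its calls have no replicate check there. In that fit hmbsb, urod and cpox passed by edgeR as higher, against 1.50% of all genes, and alas1 passed as lower in marrow than in brain (-0.70, adjusted p = 0.0449), against 0.871% of all genes. In the edgeR fit over all libraries of the experiment the difference for alas2 was -0.18 (SE 0.33, adjusted p = 0.839). Neither its ablation response nor the difference of that response between the tissues was resolved.

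Loss of cebpd in the ablated brain asks whether this transcription factor bears on the pathway there. The gene itself rose by 1.05 on the log2 scale in the ablated brain (edgeR adjusted p = 0.00596). By edgeR 0 members passed, against 0.135% of the 11103 genes tested, and by DESeq2 also 0, with log2 fold changes from -0.34 to 0.26 and a median of -0.03. The lowest was alas2, at 50.8, 73.6 and 48.8 CPM in wild type and 44.1, 46.8 and 45.0 CPM in knockout. All 3 knockout libraries lay below all 3 wild type libraries, as for 7.08% of all genes, although the gap between the nearest ones was small. The log2 fold change was -0.34 (SE 0.14, unadjusted p = 0.0256, a side and threshold that 4.95% of all genes met, and adjusted p = 0.501).

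Without wild type replicate 2, the library with 73.6 CPM, the log2 fold change of alas2 was -0.13 (SE 0.09, adjusted p = 0.827), so that 1 library carried most of the difference. The other wild type libraries, at 50.8 and 48.8 CPM, lay above the knockout range by little. uros (-0.26, adjusted p = 0.644) and ppox (-0.23, adjusted p = 0.882) were the next lowest, and cpox was the highest (0.26, adjusted p = 0.704). alas1 had a value of -0.04 (SE 0.09). The ratio of alas2 to alas1 differed by -0.28 on the log2 scale between knockout and wild type (exact permutation p = 0.4).

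Globin and membrane genes lay mostly below 0 beside alas2 in the knockout brain, and erythroid regulators did not. Of 11 tested globin and membrane genes 8 were below 0, with a median of -0.21 and 0 past the adjusted test. On the lower side 5 of them had an unadjusted edgeR p under 0.05, as 4.95% of all genes did. ba1l stood at -0.60 (adjusted p = 0.0823) and hbaa1 at -0.41 (adjusted p = 0.0766). The sum of the list ran from 708 to 754 CPM in knockout and from 864 to 966 CPM in wild type. slc25a37, a mitochondrial iron importer named mitoferrin that zebrafish red cells need, had 4.12, 5.46 and 3.79 CPM in wild type and 2.68, 2.78 and 2.48 CPM in knockout (-0.73, SE 0.27, adjusted p = 0.479). Of 6 tested erythroid regulators 3 were above 0 and 3 below, with a median of 0.12. The highest was gata1a, at 1.08, 1.88 and 1.75 CPM in wild type and 3.52, 3.71 and 2.15 CPM in knockout (0.96, SE 0.35, adjusted p = 0.455). These levels are low for libraries of this depth, so few reads underlie the value of gata1a. Marker lists of other cell types went both ways in the same knockout libraries. All 6 oligodendrocyte genes were below 0 (median -0.17), with a sum of 1719 to 2020 CPM in knockout against 2052 to 2182 CPM in wild type. The neutrophil genes summed to 33.4 to 36.7 against 40.1 to 50.6 CPM, and the neuron genes to 11624 to 11721 against 11869 to 12284 CPM. Of the 4 neutrophil genes tested 2 were below 0, and of the 9 neuron genes 6. Above 0 were 3 of 4 tested lymphocyte genes, 2 of 2 thrombocyte genes, 10 of 14 cell cycle genes and 3 of 5 nephron genes. The part of the red cell transcripts, or of the other cell types, in the value of alas2 was not tested.

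Ablated wild type brain was sequenced in both experiments, with 2 and 3 libraries. Between them, fech and urod alone among the members had levels that did not overlap. fech stood at 2.96 and 2.54 CPM in the ablation experiment and at 4.77, 7.90 and 7.87 CPM in the cebpd experiment, a higher level without overlap that 28.3% of 11644 genes also had. urod stood at 13.7 and 12.2 CPM against 12.1, 8.09 and 8.16 CPM, where the nearest libraries almost touch, and 29.3% of all genes were lower in that way. Within the cebpd experiment the knockout differed from its wild type by 0.08 for fech (SE 0.26) and -0.03 for urod (SE 0.22). The cebpd libraries are shallower, with 22 to 54 reads of fech in wild type, so depth and experiment cannot be told apart.

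Profiles over the 14 RNA libraries were compared by the root mean square difference of log2 CPM, each profile centred on its own mean, among 11847 genes with a mean of at least 2 CPM. The genes most like alas1 were gcdha, ncoa4, hsp90ab1, ccng1 and tfr1b, at differences of 0.111 to 0.142. ncoa4, whose mammalian product delivers ferritin for breakdown, stood at 326 to 406 CPM in marrow and 154 to 182 CPM in brain. The genes most like alas2 were sytl4, hkdc1, ef1, ccbl1 and tpp1, at 0.203 to 0.244.

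No haem synthesis gene was among the 100 nearest of either, a small part of the 11847 genes compared, so that absence says little about the members. Within the pathway the nearest profile to that of alas2 was urod, at 0.435, and the nearest to that of alas1 was uros, at 0.439. The closest pair was hmbsb and urod, at 0.347, and the farthest was alas1 and hmbsa, at 1.67. The 4 marrow and 10 brain libraries form separate clusters, so these distances mix the gap between the tissues with the spread within them.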

How the data were processed

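The authors deposited raw read counts (not normalized) of 14 RNA libraries, each listing 14781 gene symbols and 5 summary lines. Per the submitters' processing notes, which list tools for both assays together, the tools were Bowtie2 2.2.5, HTSeq 1.6.1, MACS2, Picard 1.91, SAMtools 1.5, TopHat2 2.1.1 and Trim Galore 0.4.1 and 0.6.4, and the build danRer10. Annotation, strand setting and treatment of multiply mapping reads were not given in the sources used here. Outside genes lay 56.6% to 58.3% of all reads in brain and 37.4% to 41.5% in marrow, and 0.254% to 1.23% were ambiguous. These summary lines stayed out of all fits. Depth is given with the groups, and shares of reads carry counting error only.

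Each comparison was fitted over all genes in R 4.3.3 with edgeR 4.0.16 (filterByExpr, TMM, glmQLFit, glmQLFTest, Benjamini-Hochberg, threshold 0.05), with no replicate block and only the groups compared. Standard errors come from the F statistic. The ratio of alas2 to alas1 was taken as log2 of reads plus 0.5 and tested by exact permutation. Spearman correlations between replicates ran from 0.990 to 0.997, and no pair of libraries was identical. The scripts were tested on simulated data.

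The members and the 15 gene lists (148 of 178 entries in the files) were chosen with earlier results of these data known. The text names all 10 members, the 5 genes most like alas1 and alas2, and from each list those past the threshold with the smallest p or, where none passed, up to 2 with the smallest p. slc25a38a in ablated marrow, slc25a38b, slc6a9 and the genes at 0 reads were named after their values were seen. Reads per alas2 read were added after seeing the data. Alternatives were DESeq2 1.42.0, no TMM, other filters, wider fits, a replicate block and leaving out each library.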

Additional observations from a re-analysis of the deposited data

How the results depend on the processing

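Kidney marrow against brain gave 10 members higher under every alternative run. In ablated marrow the count of members called higher was 0 by edgeR with other scalings and filters and without each library in turn, 6 with DESeq2, 5 in the fit over 8 libraries and 6 with a replicate block (adjusted p = 0.042), which called 3.56% of all genes as higher. For the tissue difference it was 4 with DESeq2 and 3 with the replicate block (0.673% of all genes), and 0 to 3 higher and 0 to 1 lower without single libraries. In brain it was 0 to 1 without single libraries, and in the cebpd experiment 0 throughout. Leaving out 1 of 2 libraries leaves a lone sample that is assumed to vary like the other groups. The replicate numbers do not establish a pairing: deviations of same-numbered libraries correlated at 0.018 in brain, 0.219 in marrow and -0.083 to 0.017 in the cebpd experiment.

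Some single values changed sign. Without TMM, alas1, alad, uros and urod in ablated brain were 0.047, 0.041, 0.044 and 0.034, and urod in the knockout was 0.0074. With the replicate block alad was 0.0014 in ablated brain and -0.015 in the knockout. Leaving out single libraries in ablated brain gave -0.037 to 0.44 for alas2, -0.22 to 0.22 for alad, -0.39 to 0.16 for hmbsa, -0.23 to 0.024 for hmbsb, -0.051 to 0.013 for uros, -0.11 to 0.062 for urod and -0.031 to 0.17 for ppox. In ablated marrow it gave -0.21 to 0.35 for alas2 and -0.038 to 0.99 for the log2 ratio of alas2 to alas1. In the knockout it gave -0.13 to 0.054 for alas1, -0.31 to 0.26 for alad, -0.35 to 0.14 for hmbsa, -0.13 to 0.12 for hmbsb, -0.19 to 0.17 for urod and -0.20 to 0.22 for fech. For the tissue difference it gave -0.49 to 0.082 for alas2. The causes were not tested.

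No TMM moved the median of all genes by -0.22 between the tissues. The cebpd libraries hold as few as 15 reads of hmbsa and 17 of ppox, and 2 libraries a group in the ablation experiment leave no exact permutation p under 0.333.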
